A study of Mus musculus with 24 samples.

Results

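The genes described here make, break down and sense the active form of vitamin D, or move calcium across the epithelium of the kidney tubule. They are 10 genes of the 54393 counted per library: Cyp24a1, Cyp27b1, Vdr, Kl, S100g, Calb1, Trpv5, Trpv6, Slc8a1 and Atp2b1, all of which were found by name in every table and passed the filter on low counts in every comparison. The set was chosen by measured values, because Cyp24a1, S100g and Kl were lower in the libraries labelled 3XKO, so every value of that comparison is given as a description without a test. The tests below rest on the other lines, whose values were not the stated reason for that choice. The exception is an alternative that fits all 24 libraries at once. Earlier results of these data were known when genes and lists were chosen, so the tests cannot be shown to be independent of the choice.

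Bulk RNA sequencing was done on whole mouse kidneys at embryonic day 18.5, in 24 libraries from 3 mouse lines made to ask what Dmrt2, Hmx2 and Hmx3, transcription factor genes, do in the development of intercalated cell subtypes of the collecting duct. The groups were Dmrt2 KO (3 libraries) with Dmrt2 control (3), Hmx3; Hmx2 KO (6) with Hmx3; Hmx2 control (6), and 3XKO, labelled as lacking Dmrt2, Hmx3 and Hmx2 (3), with 3XKO control (3), each set of controls being littermates of its own line. Alleles, the controls' own genotypes beyond that name and the parentage of each embryo are not given in the sources used here. Nothing says that each library is a separate embryo, so p-values measure only the spread between these libraries, whose technical part is not known. Y-linked reads, given below, differed between libraries of every group but Dmrt2 control, so those groups held embryos of both sexes. Total counts ran from 52286824 to 127339273 reads per library, and markers of podocytes, collecting duct and each tubule segment were all detected, as in kidney.

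The targeted genes were read first as a check of the labels, in CPM (read counts relative to library size, with sizes scaled by the TMM method). Dmrt2 had 2.14, 2.24 and 1.56 CPM in the Dmrt2 KO libraries, against 12.3, 13.99 and 14.9 CPM in the Dmrt2 control libraries. Hmx2 was between 0 and 0.0607 CPM in the Hmx3; Hmx2 KO libraries, against 1.58 to 2.26 CPM in the Hmx3; Hmx2 control libraries. In the third line Hmx2 was at 0, 0.0211 and 0 CPM in the libraries labelled 3XKO, against 2.43, 3.31 and 2.32 CPM in the 3XKO control libraries, but Dmrt2 went against the label. It had 18.2, 17.7 and 19.2 CPM in the libraries labelled 3XKO, against 10.6, 12.1 and 11.7 CPM in the 3XKO control libraries, so all 3 lay above the controls. Directions drawn from this line are therefore those of libraries labelled 3XKO, whose Dmrt2 counts were higher than in controls. Dmrt2 was also higher in the Hmx3; Hmx2 line, at a mean of 11.3 CPM in knockout and 9.04 CPM in control libraries. Each knockout library there lay above all controls of its own deposited table, where 0.163% of all genes did so. The log2 fold change of Dmrt2 in that line, 0.32 ± 0.06 (adjusted p = 0.19), did not pass in edgeR. Of 23 alternatives 1 called it, DESeq2 (adjusted p = 0.0012). In the Dmrt2 line both other targeted genes were higher in the knockout libraries. Hmx2 had 14.3, 13.7 and 14.1 CPM in the Dmrt2 KO libraries, against 3.58, 3.57 and 5.03 CPM in the Dmrt2 control libraries, and rose by 1.80 ± 0.14 on the log2 scale in edgeR (adjusted p = 3e-05), a call kept in all 14 alternatives run. Hmx3 had 0.869, 1.07 and 0.89 CPM in the Dmrt2 KO libraries, against 0.138, 0.0516 and 0.396 CPM in the Dmrt2 control libraries, without overlap, and its log2 fold change of 2.28 ± 0.52 (adjusted p = 0.098) did not pass in edgeR. Of the 13 alternatives that gave Hmx3 a value, 2 called it. It passed in edgeR without Dmrt2 control replicate 3 (log2 fold change 3.31, adjusted p = 0.011) and with no filter on low counts (adjusted p = 9.2e-07). In the other lines Hmx3 averaged 0.0173 CPM in Hmx3; Hmx2 KO and 0.0874 CPM in Hmx3; Hmx2 control libraries, and was at 0 in the libraries labelled 3XKO, against a mean of 0.0928 CPM in 3XKO control libraries. The labels do not say which exons were removed, and counts over a whole gene cannot show whether a working transcript was made. Y-linked genes summed to over 1 CPM in 1 of 3 Dmrt2 KO libraries against 3 of 3 Dmrt2 control libraries, in 2 of 6 Hmx3; Hmx2 KO against 4 of 6 Hmx3; Hmx2 control libraries, and in 2 of 3 of both groups of the third line. The Dmrt2 KO library with Y-linked reads was replicate 1. With Y-linked reads as a covariate, the knockout effect in the Dmrt2 line therefore rests on that 1 library against the controls. Only its size is given below.

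As background, the proximal tubule of the kidney is the main site where the circulating precursor of vitamin D is hydroxylated to its active form, by the enzyme that Cyp27b1 encodes, and Cyp24a1 encodes the enzyme that inactivates it. The active hormone binds the receptor encoded by Vdr, a nuclear receptor that pairs with a retinoid X receptor on DNA, and Kl encodes klotho, the co-receptor through which FGF23 lowers Cyp27b1 and raises Cyp24a1 in the kidney. In the distal tubule calcium enters the cell through the channels Trpv5 and Trpv6, is carried by the calbindins encoded by S100g and Calb1, and leaves through the sodium-calcium exchanger Slc8a1 and the calcium pump Atp2b1.

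RefSeq promoter entries (build GRCm38.p6, not the mm39 build of the counts) were found for 8 of the 10 genes. The 250 bases before the annotated start are printed for Cyp27b1 and S100g, the genes of the 10 furthest apart between Dmrt2 KO and control kidneys, and for Trpv6, the other gene with a match to the nuclear receptor core. Capitals mark matches, on either strand, to AGGTCA, a core that the vitamin D receptor shares with other nuclear receptors, or to CAAGTG, the core bound by HMX proteins; no matches of the pair overlapped. They lie at chr10:127047996-127048245 (plus strand), chrX:162964600-162964849 (minus strand) and chr6:41636406-41636655 (minus strand).
Cyp27b1: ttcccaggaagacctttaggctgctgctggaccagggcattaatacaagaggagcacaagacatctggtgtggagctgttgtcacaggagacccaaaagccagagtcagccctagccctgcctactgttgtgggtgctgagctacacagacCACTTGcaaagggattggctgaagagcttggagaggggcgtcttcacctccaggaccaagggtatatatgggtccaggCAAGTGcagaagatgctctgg
S100g: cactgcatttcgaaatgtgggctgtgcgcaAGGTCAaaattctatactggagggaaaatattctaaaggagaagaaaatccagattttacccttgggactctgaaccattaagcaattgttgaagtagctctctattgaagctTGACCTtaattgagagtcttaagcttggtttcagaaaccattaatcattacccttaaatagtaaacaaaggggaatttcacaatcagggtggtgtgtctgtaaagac
Trpv6: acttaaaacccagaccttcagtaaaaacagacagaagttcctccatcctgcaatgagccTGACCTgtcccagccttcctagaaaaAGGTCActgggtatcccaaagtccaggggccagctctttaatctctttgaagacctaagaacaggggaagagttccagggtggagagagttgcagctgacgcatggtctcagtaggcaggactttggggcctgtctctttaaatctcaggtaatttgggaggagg
The S100g stretch held AGGTCA at 2 places, the first of them 220 bases before the start. The Trpv6 stretch also held it at 2 places, 191 and 165 bases before the start. CAAGTG stood in the Cyp27b1 stretch 99 and 21 bases before the start. Among 32851 promoters of this length, 14% held AGGTCA and 11.6% held CAAGTG on either strand. The vitamin D receptor is known for binding a pair of such cores set 3 bases apart. Each core of the pair could read AGGTCA, with GGGTCA also accepted, and so were AGTTCA and likewise GGTTCA. The pair was in 0.0396% of promoters and in none of the 8 entries of these genes. TATAAA was found in the Trpv5 stretch, 43 bases before the start, and in 12.4% of all promoters. A match describes these letters only.

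In kidneys of the 12 control libraries the genes spanned a wide range of levels, given here as CPM per kilobase of exon. S100g was the highest at a mean of 371 (279 to 521), where the brackets give the lowest and the highest control library. Cyp27b1 followed at 49.0 (17.2 to 76.2), Kl at 37.5 (24.7 to 47.4) and Calb1 at 27.1 (16.9 to 40.2), and these 3 overlapped in their ranges. Atp2b1 stood at 14.3 (12.4 to 16.9), Cyp24a1 at 11.9 (4.24 to 21.5) and Vdr at 11.7 (9.82 to 14.1), again with overlapping ranges. The place of Cyp24a1 in this order depended on the control libraries taken: it averaged 5.64 in Dmrt2 control libraries, below Vdr at 11.3, and 16.7 in 3XKO control libraries, next to Atp2b1 at 16.5. Within the Hmx3; Hmx2 line, Cyp24a1 ran from 17.1 to 21.5 in control replicates 1 to 3 and from 5.11 to 8.84 in control replicates 4 to 6. Slc8a1 at 7.09 (4.90 to 8.89), Trpv5 at 4.48 (2.27 to 6.29) and Trpv6 at 2.43 (1.77 to 2.80) CPM per kilobase closed the order. Of the neighbours in this order, S100g and Cyp27b1, and Vdr and Slc8a1, had ranges over the control libraries that did not overlap.

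**Figure D1:**
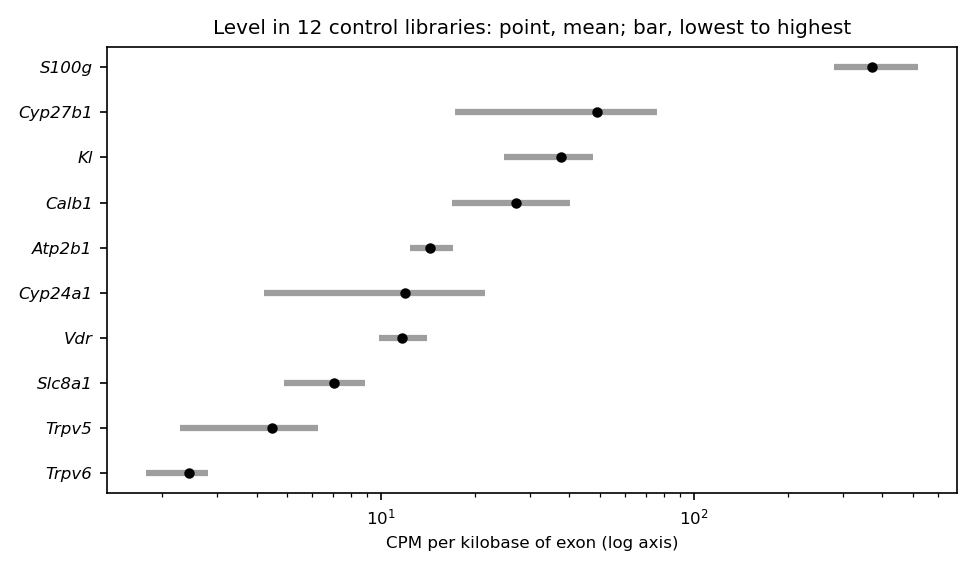
Levels of the 10 genes in the 12 control libraries, as CPM per kilobase of exon on a log axis; points are means and bars run from the lowest to the highest library. S100g, at a mean of 371, stands apart from all other genes, and Trpv6, at 2.43, is the lowest.

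Cyp27b1, the gene of the activating enzyme (chr10:126884119-126888875 in mm39, plus strand), stood furthest from its controls in the Dmrt2 line. It had 9.71, 9.39 and 8.35 CPM in the Dmrt2 KO libraries, against 44.2, 92.1 and 146 CPM in the Dmrt2 control libraries. All Dmrt2 KO libraries were low and close together, all controls were higher, and the controls differed among themselves by more than the knockouts did. The mean was 9.15 ± 0.713 CPM in Dmrt2 KO and 94.1 ± 51.0 CPM in Dmrt2 control kidneys (SD, n = 3 each). That is a log2 fold change of -3.36 ± 0.53 (SE), or 10.3-fold lower in the knockout. This did not pass edgeR's quasi-likelihood test after Benjamini-Hochberg adjustment over all genes (adjusted p = 0.15, unadjusted p = 0.0029). The test called 0.444% of the 19807 genes in this comparison. Of 14 alternatives 3 called Cyp27b1. Without Dmrt2 control replicate 1, the lowest control, it passed in edgeR (log2 fold change -3.70, adjusted p = 0.035). DESeq2 called it with all libraries of this line (adjusted p = 1.4e-10). So did one edgeR fit of all 24 libraries (adjusted p = 0.00099), which include the line that chose the set. Leaving out each other library of this line in turn gave adjusted p from 0.17 to 0.62 in edgeR. With Y-linked reads as a covariate, where the effect rests on Dmrt2 KO replicate 1, the log2 fold change was -3.27. In bulk tissue, fewer cells of a type and less RNA per cell cannot be told apart.

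The Hmx3; Hmx2 line gave overlapping groups. Cyp27b1 had a median of 143 CPM (119 to 183) in the Hmx3; Hmx2 KO libraries, against a median of 123 CPM (99.3 to 178) in the Hmx3; Hmx2 control libraries, with a log2 fold change of 0.16 ± 0.12 (adjusted p = 0.95) in edgeR. The difference between the effects in the Dmrt2 and Hmx3; Hmx2 lines, which share no libraries, was tested directly in the 18 libraries and came to -3.53 ± 0.40 on the log2 scale (edgeR, adjusted p = 0.00095), a comparison in which 0.248% of 20994 genes were called. It was called in each of the 23 alternatives run, from -3.87 to -3.07 when libraries were left out in turn. Its SE is below the 0.53 of the Dmrt2 effect fitted alone, since spread is taken from all 18 libraries, most of them of the Hmx3; Hmx2 line. Cyp27b1 averaged 132 ± 29.4 CPM in Hmx3; Hmx2 controls, against 94.1 ± 51.0 CPM in Dmrt2 controls (SD). The call thus leans on the spread of the Hmx3; Hmx2 line. The third line gave Cyp27b1 values of 13.9, 13.4 and 10.8 CPM in the libraries labelled 3XKO, against 192, 196 and 54.7 CPM in the 3XKO control libraries. The libraries labelled 3XKO, with Dmrt2 above its controls, were all below the controls, of which replicate 3 was the lowest, and the log2 fold change was -3.54 ± 0.63 or 11.6-fold lower.

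**Figure D2:**
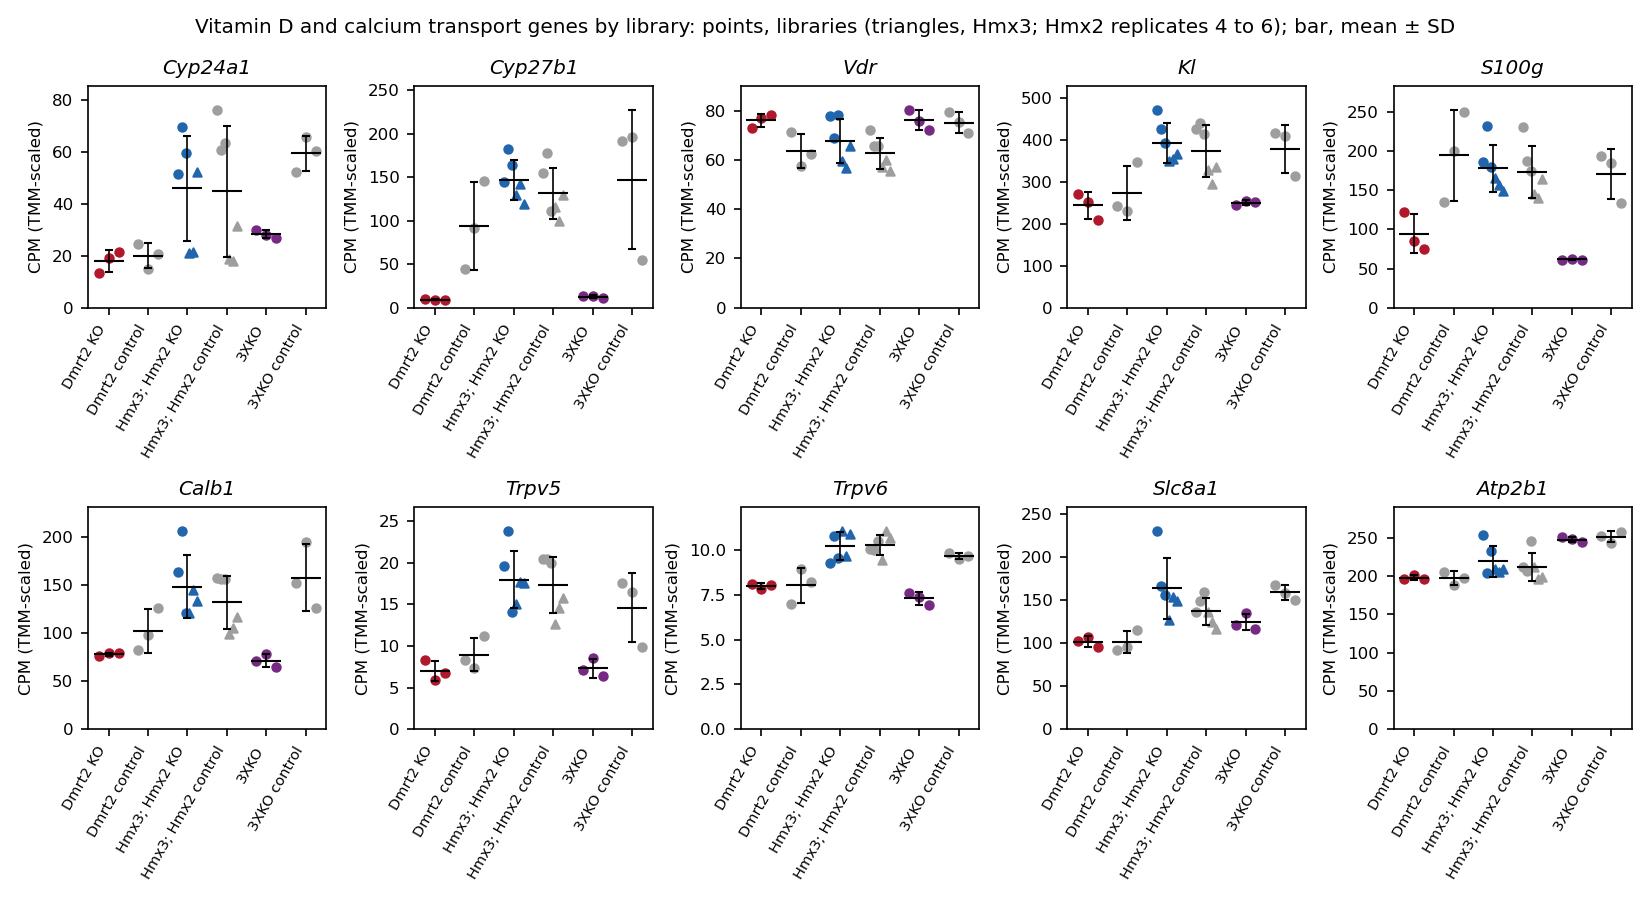
CPM of each of the 10 genes by library, with each knockout left of its own controls; points are libraries, triangles are replicates 4 to 6 of the Hmx3; Hmx2 line, and bars are means with SD. Cyp27b1 lies between 8.35 and 13.9 CPM in all Dmrt2 KO libraries and libraries labelled 3XKO, and at 44.2 CPM or higher in every other library.

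Cyp24a1 (chr2:170324628-170339065, minus strand), the gene of the inactivating enzyme, had 13.4, 19.03 and 21.6 CPM in the Dmrt2 KO libraries, against 24.5, 15.1 and 20.7 CPM in the Dmrt2 control libraries. The Dmrt2 groups overlapped, with a log2 fold change of -0.15 ± 0.25 (adjusted p = 0.87) in edgeR. Within the Hmx3; Hmx2 line Cyp24a1 had a median of 52.1 CPM (21.3 to 69.8) in the Hmx3; Hmx2 KO libraries, against a median of 46.3 CPM (18.2 to 76.4) in the Hmx3; Hmx2 control libraries, again overlapping (log2 fold change 0.15 ± 0.27, adjusted p = 0.97). Much of that spread lay between the deposited tables of this line: replicates 1 to 3 averaged 60.4 ± 9.06 CPM in knockout and 67.1 ± 8.22 CPM in control libraries, and replicates 4 to 6 averaged 31.7 ± 17.997 CPM in knockout and 22.8 ± 7.52 CPM in control libraries (SD, n = 3 each). The knockout effect on Cyp24a1 was not called as different between these tables (0.63 ± 0.53 log2, edgeR adjusted p = 1), a test that reached an unadjusted p under 0.05 for 2.12% of genes. Cyp24a1, one of the genes that chose the set, had in the third line 30.1, 28.0 and 27.0 CPM in the libraries labelled 3XKO, against 52.4, 65.8 and 60.6 CPM in the 3XKO control libraries, with no overlap and a log2 fold change of -1.07 ± 0.08.

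Vdr (chr15:97752306-97808511, minus strand), the hormone's receptor, had 73.1, 76.9 and 78.3 CPM in the Dmrt2 KO libraries, against 71.2, 57.6 and 62.5 CPM in the Dmrt2 control libraries. The Dmrt2 KO libraries all lay above their controls, with a log2 fold change of 0.26 ± 0.07 (adjusted p = 0.17) in edgeR. It passed without Dmrt2 control replicate 1 (log2 fold change 0.35, adjusted p = 0.022) and with no filter on low counts (adjusted p = 0.0039). It did not pass in DESeq2 (adjusted p = 0.055) or in one edgeR fit of all 24 libraries (adjusted p = 0.084). With Y-linked reads as a covariate, where the effect rests on Dmrt2 KO replicate 1, the log2 fold change was 0.21. Vdr in the Hmx3; Hmx2 line had a median of 67.2 CPM (56.9 to 78.2) in the Hmx3; Hmx2 KO libraries, against a median of 62.8 CPM (55.5 to 72.3) in the Hmx3; Hmx2 control libraries (log2 fold change 0.11 ± 0.04, adjusted p = 0.94). The third line gave 80.4, 75.9 and 72.3 CPM in the libraries labelled 3XKO, against 79.5, 75.2 and 70.7 CPM in the 3XKO control libraries. Those groups overlapped, and the third line's log2 fold change was 0.02 ± 0.06.

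Kl (chr5:150876072-150917282, plus strand), which encodes klotho, had 272, 252 and 209 CPM in the Dmrt2 KO libraries, against 242, 229.9 and 348 CPM in the Dmrt2 control libraries. The groups overlapped (log2 fold change -0.15 ± 0.20, adjusted p = 0.83 in edgeR), as they did in the Hmx3; Hmx2 line, where Kl had a median of 379 CPM (349 to 473) in the Hmx3; Hmx2 KO libraries, against a median of 375 CPM (296 to 442) in the Hmx3; Hmx2 control libraries (log2 fold change 0.08 ± 0.05, adjusted p = 0.94). As one of the genes that chose the set, Kl had in the third line 244, 256 and 253 CPM in the libraries labelled 3XKO, against 416, 409.6 and 313 CPM in the 3XKO control libraries. Its log2 fold change there was -0.59 ± 0.10, the smallest of the 3 genes that chose the set.

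Both calbindins, like Cyp27b1, were wholly below the Dmrt2 controls in Dmrt2 KO, where 8.74% of all genes were. In the libraries labelled 3XKO they were also wholly below the controls, as were 8 of the 10 genes and 12.8% of all genes. S100g was one of the genes that chose the set, so nothing is read from its place in the third line. S100g (chrX:161744988-161747595, minus strand), the small calbindin, had 123, 85.1 and 75.2 CPM in the Dmrt2 KO libraries, against 134, 199 and 250.1 CPM in the Dmrt2 control libraries. Every Dmrt2 KO library lay below every control, and the mean was 94.3 ± 25.1 CPM in Dmrt2 KO and 195 ± 58.0 CPM in Dmrt2 control kidneys (SD, n = 3 each). The log2 fold change of -1.04 ± 0.33 (adjusted p = 0.35) did not pass in edgeR. S100g lies on the X chromosome. With Y-linked reads as a covariate, where the effect rests on Dmrt2 KO replicate 1, the log2 fold change was -0.65. S100g in the Hmx3; Hmx2 line had a median of 173 CPM (148 to 232) in the Hmx3; Hmx2 KO libraries, against a median of 169 CPM (139.9 to 231) in the Hmx3; Hmx2 control libraries, with overlap (log2 fold change 0.04 ± 0.08, adjusted p = 0.98). The difference between these effects was -1.09 ± 0.26 (edgeR, adjusted p = 0.16). Of 23 alternatives 2 called this difference, edgeR without Dmrt2 control replicate 1 (-1.30, adjusted p = 0.026) and DESeq2 (adjusted p = 0.01). For the third line S100g stood at 61.3, 61.9 and 61.4 CPM in the libraries labelled 3XKO, against 193, 185 and 134 CPM in the 3XKO control libraries, with a log2 fold change of -1.47 ± 0.15. The 3 libraries labelled 3XKO agreed to within 0.332 CPM (SD).

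Calb1 (chr4:15881264-15908064, plus strand), the large calbindin, had 75.8, 79.0 and 79.1 CPM in the Dmrt2 KO libraries, against 81.9, 98.5 and 127 CPM in the Dmrt2 control libraries. The Dmrt2 KO libraries were below the controls, the nearest control being replicate 1, with a log2 fold change of -0.38 ± 0.15 (adjusted p = 0.4) in edgeR. Leaving out each library in turn gave -0.52 to -0.20, the smallest change without Dmrt2 control replicate 3. With Y-linked reads as a covariate, where the effect rests on Dmrt2 KO replicate 1, the log2 fold change was -0.42. Calb1 in the Hmx3; Hmx2 line had a median of 139 CPM (121 to 206) in the Hmx3; Hmx2 KO libraries, against a median of 137 CPM (99.5 to 158) in the Hmx3; Hmx2 control libraries (log2 fold change 0.18 ± 0.12, adjusted p = 0.94). The difference between the effects was -0.58 ± 0.21 (adjusted p = 0.51). Calb1 in the third line had 70.5, 78.5 and 64.7 CPM in the libraries labelled 3XKO, against 152, 195 and 126 CPM in the 3XKO control libraries, and the libraries labelled 3XKO were again all below, with a log2 fold change of -1.14 ± 0.18.

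The channels had the lowest levels per kilobase of the set in controls. Trpv5 (chr6:41629107-41657703, minus strand) and Trpv6 (chr6:41597558-41613339, minus strand) lie beside each other and are close relatives; counting had no option set for reads that map to several places, per the file headers, so their values carry that uncertainty. Trpv5 had 8.34, 5.87 and 6.77 CPM in the Dmrt2 KO libraries, against 8.26, 7.36 and 11.2 CPM in the Dmrt2 control libraries, with overlap (log2 fold change -0.34 ± 0.17, adjusted p = 0.46 in edgeR). Trpv5 in the Hmx3; Hmx2 line had a median of 17.6 CPM (14.1 to 23.8) in the Hmx3; Hmx2 KO libraries, against a median of 17.9 CPM (12.7 to 20.4) in the Hmx3; Hmx2 control libraries (log2 fold change 0.07 ± 0.11, adjusted p = 0.97). The third line gave 7.11, 8.57 and 6.33 CPM in the libraries labelled 3XKO, against 17.5, 16.4 and 9.88 CPM in the 3XKO control libraries. The libraries labelled 3XKO were below the controls, with a log2 fold change of -0.99 ± 0.24. Trpv6 had 8.11, 7.83 and 8.06 CPM in the Dmrt2 KO libraries, against 6.97, 8.92 and 8.20 CPM in the Dmrt2 control libraries, and all 3 Dmrt2 KO libraries lay inside the range of the controls (log2 fold change 0.00 ± 0.12, adjusted p = 1 in edgeR). In the Hmx3; Hmx2 line it had a median of 10.2 CPM (9.25 to 11.04) in the Hmx3; Hmx2 KO libraries, against a median of 10.3 CPM (9.44 to 11.04) in the Hmx3; Hmx2 control libraries (log2 fold change -0.01 ± 0.06, adjusted p = 0.99). The third line had 7.62, 7.38 and 6.91 CPM in the libraries labelled 3XKO, against 9.81, 9.49 and 9.69 CPM in the 3XKO control libraries, a narrow gap without overlap and a log2 fold change of -0.40 ± 0.09.

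Calcium leaves the cell by the last pair of genes. Slc8a1 (chr17:81680534-82045806, minus strand), the exchanger, had 102, 107.04 and 94.9 CPM in the Dmrt2 KO libraries, against 92.1, 95.4 and 115.6 CPM in the Dmrt2 control libraries, with overlap (log2 fold change 0.01 ± 0.08, adjusted p = 0.97 in edgeR). In the Hmx3; Hmx2 line it had a median of 155 CPM (126 to 229.7) in the Hmx3; Hmx2 KO libraries, against a median of 136 CPM (116.2 to 159) in the Hmx3; Hmx2 control libraries, the highest fold change of the set in that line at 0.25 ± 0.10 (adjusted p = 0.94). Slc8a1 in the third line had 120.5, 135 and 117 CPM in the libraries labelled 3XKO, against 167, 158 and 150.3 CPM in the 3XKO control libraries, with the libraries labelled 3XKO below the controls and a log2 fold change of -0.35 ± 0.06. Atp2b1 (chr10:98750268-98862005, plus strand), the pump, had 196, 202 and 196 CPM in the Dmrt2 KO libraries, against 206, 188 and 198 CPM in the Dmrt2 control libraries, and its groups overlapped in every line. Its log2 fold change was 0.01 ± 0.06 in the Dmrt2 line, 0.05 ± 0.05 in the Hmx3; Hmx2 line and -0.02 ± 0.05 in the third.

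Counted over the set, edgeR called 0 of the 10 genes in the Dmrt2 comparison, where DESeq2 called 1, Cyp27b1. At an unadjusted p under 0.05 there were 4, Cyp27b1, S100g and Calb1 lower and Vdr higher in Dmrt2 KO, against 12.3% of all genes tested. That count was 2 without Dmrt2 KO replicate 2 or without Dmrt2 KO replicate 3. Of the 10, 3 lay wholly below the Dmrt2 controls and 1 wholly above, where 8.74% and 8.88% of all genes did. The median log2 fold change was -0.15 against -0.002 over all genes. It was -0.29 without Dmrt2 control replicate 2, -0.05 without Dmrt2 control replicate 3 and -0.04 with the Y-linked covariate, where the effect rests on Dmrt2 KO replicate 1. In the Hmx3; Hmx2 comparison edgeR and DESeq2 each called 0 of 10, with 2 at an unadjusted p under 0.05 (4.93% of all genes), a count that ran from 0 to 4 when libraries were left out in turn. The adjusted call rate over all genes was 0.021%. None of the 10 was wholly above or below the Hmx3; Hmx2 controls in both tables, where 0.163% and 0.31% of all genes were, and the median was 0.10 against -0.005. In the third line, which chose the set, 8 of 10 lay wholly below the controls, all but Vdr and Atp2b1, where 12.8% of all genes did, with a median of -0.79 against 0.001. The adjusted call rate over all genes there was 1.03%, and nothing is read from these counts. For the difference between the Dmrt2 and Hmx3; Hmx2 effects edgeR called 1 of 10, with 3 at an unadjusted p under 0.05, a level that 7.64% of all genes reached; without 1 library that count ran from 2 to 5.

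**Figure D3:**
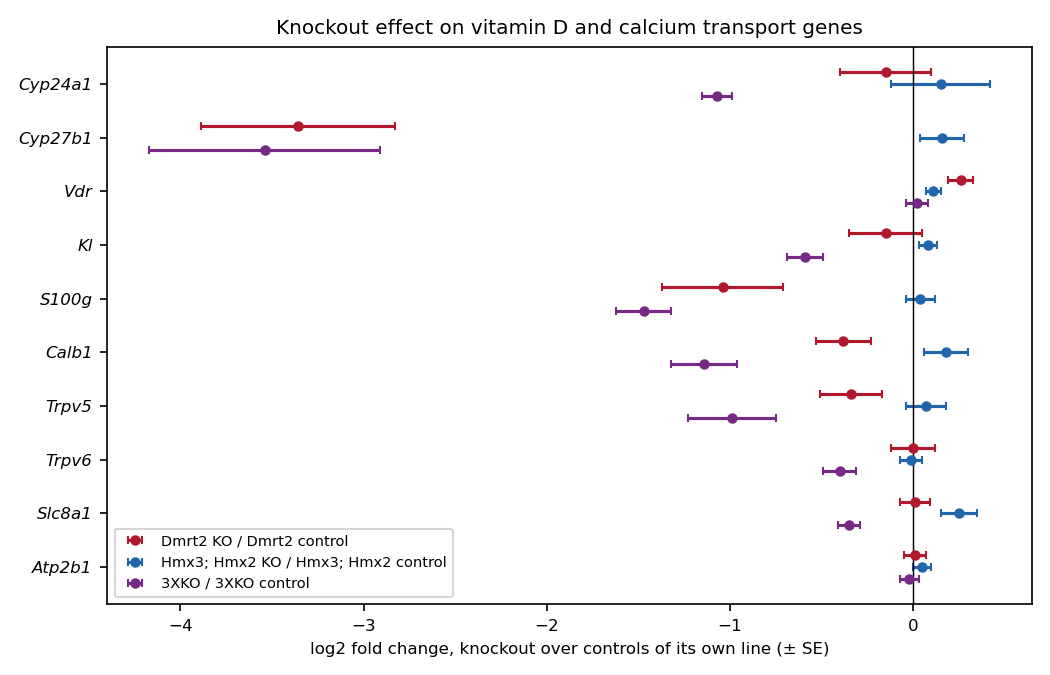
Log2 fold change of each gene, knockout over the controls of its own line, with SE as bars. Cyp27b1 stands at -3.36 in the Dmrt2 line, at 0.16 in the Hmx3; Hmx2 line and at -3.54 in the libraries labelled 3XKO, whose values are a description because that line chose the set.

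Libraries did not all stand alike within groups. Dmrt2 control replicates 1 and 2 were each the lowest Dmrt2 control for 5 of the 10 genes, and replicate 3 was the highest for 6. In the third line, replicate 3 of the libraries labelled 3XKO was the lowest of its group for 8. There, 3XKO control replicate 3 was the lowest of its group for 7. Summed markers of other cells also stood apart between some groups. The 6 principal cell markers summed to 602 to 658 CPM in Dmrt2 KO, against 679 to 933 CPM in Dmrt2 control libraries, with 2 of 6 genes wholly below. Of all genes, 8.74% lay wholly below these controls. A sum follows its most abundant genes, so medians over the markers of a list are given too. For principal cells the median log2 fold change was -0.05 (lowest gene -0.52, highest 0.04). The 8 proximal tubule markers, from the segment of Cyp27b1, summed to 1334 to 1366 CPM in Dmrt2 KO, against 1346 to 1678 CPM in Dmrt2 control libraries, with 2 of 8 wholly below and 0 called by edgeR. Their median log2 fold change was -0.03 (lowest gene -0.60, highest 0.46), so single markers went both ways. The 5 distal convoluted tubule markers, from the segment of the channels, summed to 311 to 382 CPM in Dmrt2 KO, against 299 to 355 CPM in Dmrt2 control libraries. Of these, 1 of 5 lay wholly below, and the median log2 fold change was 0.05 (lowest gene -0.17, highest 0.89). The 4 liver markers summed to 25.9 to 38.5 CPM in Dmrt2 KO, against 56.7 to 68.6 CPM in Dmrt2 control libraries, with 1 of 4 wholly below. Liver markers also went both ways, with a median of -0.26 (lowest gene -1.06, highest 0.68). The 7 markers of intercalated cells, the cells the study targeted, summed to 208 to 228 CPM in Dmrt2 KO, against 223 to 247 CPM in Dmrt2 control libraries, and among them edgeR called 2 higher and 3 lower in Dmrt2 KO, where 0.444% of all genes were called.

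In the third line, the 7 intercalated cell markers summed to 261 to 279 CPM in the libraries labelled 3XKO, against 217 to 240.5 CPM in 3XKO control libraries, so the sums did not overlap, with 3 genes wholly above and 3 wholly below the controls. Of all genes, 11.6% lay wholly above and 12.8% wholly below these controls. Principal cell markers summed to 517 to 619.9 CPM in the libraries labelled 3XKO, against 643 to 706 CPM in 3XKO control libraries. Proximal tubule markers summed to 1416 to 1548 CPM in the libraries labelled 3XKO, against 1511 to 1960.1 CPM in controls, with 3 of 8 wholly below. Distal convoluted tubule markers summed to 344 to 372 CPM in the libraries labelled 3XKO, against 306 to 402 CPM in controls, with 2 of 5 wholly below. Macrophage markers summed to 61.4 to 69.5 CPM in the libraries labelled 3XKO, against 72.8 to 96.7 CPM in controls, with 3 of 4 wholly below. Podocyte markers summed to 1088 to 1102 CPM in the libraries labelled 3XKO, against 1173 to 1246 CPM in controls, with 1 of 4 wholly below. The median log2 fold change was -0.15 (-0.28 to -0.10 over genes) for principal cells and -0.09 (-0.77 to 0.55) for the proximal tubule. It was -0.06 (-0.63 to 1.53) for the distal convoluted tubule, -0.35 (-0.46 to 0.01) for macrophages and -0.09 (-0.35 to 0.07) for podocytes. The part of these cells in the values of the vitamin D and calcium genes was not tested.

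The rest of the pathway was read from 62 genes in 6 lists. In the Dmrt2 comparison edgeR called 0 of 57 tested, with 8 at an unadjusted p under 0.05, where 12.3% of all genes were. Of the 57, 4 lay wholly above and 1 wholly below the controls, where 8.88% and 8.74% of all genes did, and the median log2 fold change was 0.04. DESeq2 called 1 of them, Casr, and edgeR with no filter called 3, Casr, Cldn10 and Trpm7, named here after their values were seen. Casr, the calcium-sensing receptor, averaged 27.8 ± 0.66 CPM in Dmrt2 KO and 19.4 ± 4.54 CPM in Dmrt2 control libraries (SD, n = 3 each), a log2 fold change of 0.53 ± 0.16 (edgeR, adjusted p = 0.25). With the filter, the log2 fold change was 0.28 ± 0.11 (adjusted p = 0.37) for Cldn10, a claudin, and 0.21 ± 0.07 (adjusted p = 0.26) for Trpm7, a cation channel, both in edgeR. Cldn10 was also called without Dmrt2 control replicate 1. In the Hmx3; Hmx2 comparison edgeR and DESeq2 each called 0 of 57, with 4 at an unadjusted p under 0.05, where 4.93% of all genes were, and a median of 0.02. The lists held the makers of the precursor and its uptake (Cyp2r1, Lrp2, Cubn), the hormone and calcium sensors (Fgfr1, Pth1r, Casr), other calcium and magnesium transporters, claudins, phosphate transporters and other genes that answer to vitamin D. Their medians in the Dmrt2 comparison lay between -0.10 and 0.11.

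In the third line, 58 of the 62 were tested, 9 lay wholly above and 7 wholly below the controls, where 11.6% and 12.8% of all genes did, and the median was 0.03. Of the genes wholly on one side, the 5 with a log2 fold change of at least 0.5 either way are named, again as a description. Genes that overlapped the controls are not named, and their log2 fold changes reached -0.89 and 1.53. Calcr, the calcitonin receptor, averaged 1.92 ± 0.266 CPM in the libraries labelled 3XKO and 0.954 ± 0.0214 CPM in 3XKO control libraries (SD, n = 3 each), a log2 fold change of 1.01 ± 0.20. Spp1, which encodes osteopontin, averaged 209.6 ± 33.1 CPM in the libraries labelled 3XKO and 368 ± 110.0 CPM in controls (log2 fold change -0.81 ± 0.29). Trpm6, a magnesium channel of the distal tubule, averaged 3.38 ± 0.551 CPM in the libraries labelled 3XKO and 5.22 ± 1.33 CPM in controls (log2 fold change -0.63 ± 0.19). Gc, the carrier of vitamin D in blood, averaged 2.31 ± 0.473 CPM in the libraries labelled 3XKO and 1.42 ± 0.25 CPM in controls (log2 fold change 0.71 ± 0.21). Phex, known from phosphate handling, averaged 2.51 ± 0.283 CPM in the libraries labelled 3XKO and 1.77 ± 0.532 CPM in controls (log2 fold change 0.51 ± 0.23).

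**Figure D4:**
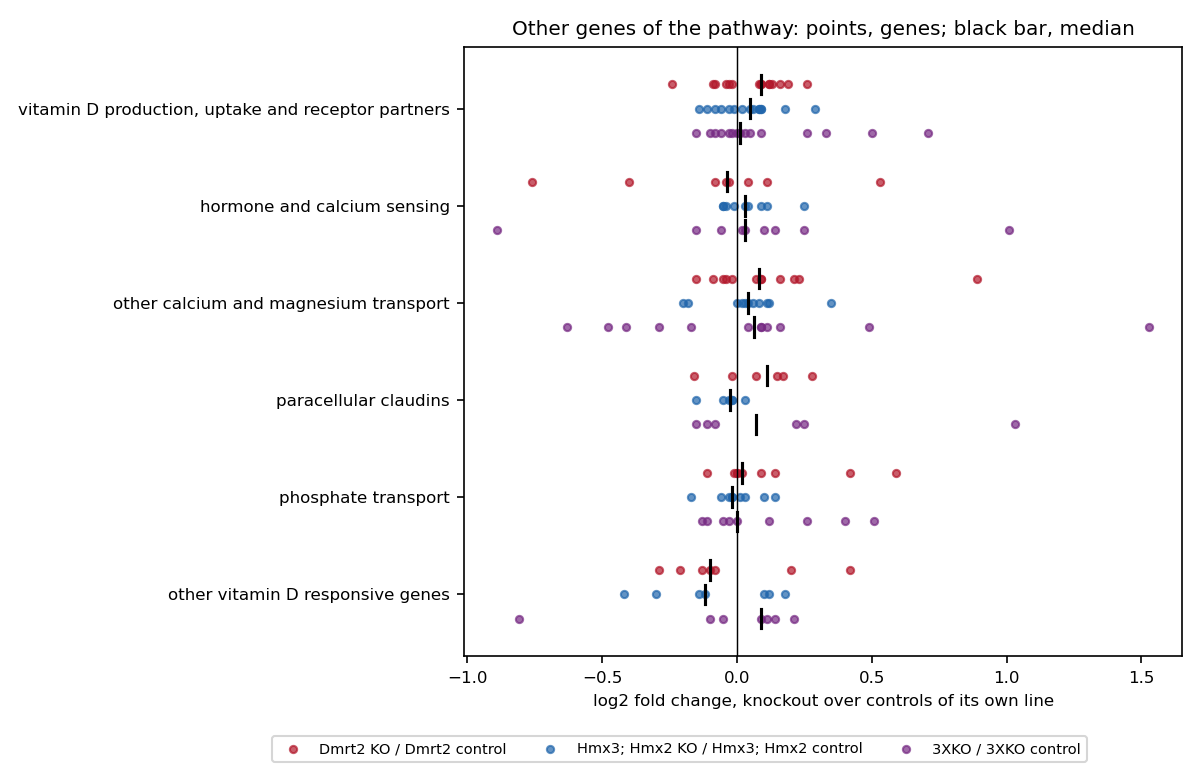
Log2 fold changes, knockout over the controls of its own line, of the other pathway genes that were tested; points are genes and black bars are the medians of each list. The medians of the lists lie close to 0 in each comparison, between -0.10 and 0.11 in the Dmrt2 line.

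For the 3 genes that chose the set, the genes nearest in pattern were looked up by the root mean square difference, over the 24 libraries, of log2(CPM + 0.5) set against the mean of the controls of the same table, among 15029 genes. Nearest to S100g were Anpep, a brush border peptidase of the proximal tubule (0.177), Tmem252 (0.195) and Ugt3a2 (0.239), where the median gene was at 0.664. Anpep's log2 fold change was -0.99 in the Dmrt2 line, 0.04 in the Hmx3; Hmx2 line and -1.48 in the libraries labelled 3XKO. Nearest to Kl were Ptges (0.12), Elovl2 (0.123) and Pgam2 (0.129), with the median gene at 0.277. Nearest to Cyp24a1 were S100a8 (0.316), Gjb2 (0.327) and Defb1 (0.328), with the median gene at 0.508. With a pseudocount of 0.1 in place of 0.5, 7 of these 9 genes were named again.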

How the data were processed

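Whole-kidney RNA of mouse embryos was poly(A)-selected and read in 24 libraries, grouped by their titles. The authors deposited raw counts of reads per gene, in 4 tables. Per the submitters' processing notes the tools were fastp 0.20.1, STAR 2.7.0e and featureCounts 2.0.1, and the build was mm39; the headers give featureCounts 2.0.3. Summing was over the exons of each gene name, with no option set for strand, counting by pair or multi-mapping reads, per the file headers. Of counts from 1 to 19, 87.9% to 94.1% were even, as when both reads of a pair are counted. Exon length, the other deposited column used, is per the file headers too. The tables hold 2 columns that fit no label, left out here.

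Tests used the robust quasi-likelihood F test of edgeR 4.0.16 under R 4.3.3, after TMM and filterByExpr (count 10, total 15), with Benjamini-Hochberg adjustment and a threshold of 0.05. Each knockout was set against the controls of its own line, with the deposited table as a term for the Hmx3; Hmx2 line. The SE of a log2 fold change is its size divided by the square root of F. The fits were also run on simulated counts with the same spread parameter for every gene. That cannot show how they behave for genes that vary more between libraries, such as Cyp27b1 among the controls. Alternatives were DESeq2 1.42.0, other scalings and filters, halved counts, a replicate block, a Y-linked covariate, a joint fit of all libraries and leaving out each library. For the difference between the Dmrt2 and Hmx3; Hmx2 effects, the last was added after seeing the data. Genes named by rule are the 10 genes of the set, the targeted genes and any pathway gene past the threshold in the Dmrt2 or Hmx3; Hmx2 comparison or their difference, of which there were 0. Pathway genes called only under an alternative in the Dmrt2 comparison, and examples of what the lists hold, are named outside that rule. In the line that chose the set, pathway genes are named that lay wholly on one side of the controls with an absolute log2 fold change of at least 0.5. The 3 genes nearest in pattern to Cyp24a1, S100g and Kl are named as well. Genes and lists were chosen with earlier results of these data known. All 24 pairs of libraries within a group and table had count differences above sampling noise, so none was taken as a duplicate. Depth limits the counting error only.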

Additional observations from a re-analysis of the deposited data

Results flagged for a closer look

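Cyp27b1 differed between the lines in its response: the Dmrt2 effect minus the Hmx3; Hmx2 effect was -3.53 on the log2 scale by edgeR's test of the difference itself (adjusted p = 0.00095), with all 3 Dmrt2 KO libraries below their controls and overlapping groups in the Hmx3; Hmx2 line. That test takes its spread from both lines together, and the Dmrt2 effect alone was not called by edgeR (adjusted p = 0.15). Atp2b1 had 1 library far from the others of its group, Hmx3; Hmx2 control replicate 3 at 247 CPM, the highest of 6. Those 6 controls come from 2 deposited tables, and the knockout libraries of the same table as that control were at 253, 204 and 233 CPM, so its value lies within the range of its table. It was the only one among 20 pairs of gene and group of 6 libraries checked for such a gap, where chance alone flags about 1 in 20.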

How the results depend on the processing

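For the Dmrt2 comparison edgeR called 88 genes, against 426 in DESeq2, 676 with no filter, 13 with Y-linked reads as a covariate and 26 to 195 when a library was left out. Of the 10 genes it called 0, against 1 in DESeq2 (Cyp27b1), 1 with no filter (Vdr), 2 in one fit of all 24 libraries (Cyp27b1 and S100g) and 0 to 2 when a library was left out. The fit of all 24 libraries takes its spread also from the line that chose the set, so nothing is read from its S100g call. For the Hmx3; Hmx2 comparison the count of 4 became 2 with a mean of at least 1 CPM, 2 in replicates 1 to 3 alone and 2 in replicates 4 to 6 alone. When a library was left out, 0 to 1 of the 10 genes lay wholly above the controls. For the third line 222 genes became 1034 in DESeq2, 1510 with no filter and 20 to 438 without 1 library. For the difference between effects 52 genes became 138 in DESeq2, 34 in one fit of all libraries and 31 to 84 without 1 library, and the 1 called of the 10 genes became 2 in DESeq2 and 1 to 2 without 1 library. Between the effects in the deposited tables of the Hmx3; Hmx2 line, edgeR called 0 genes as different and DESeq2 called 2. The cause of these shifts was not tested. Same-numbered libraries correlated at 0.0797 to 0.135 in the Dmrt2 line, -0.0604 to 0.305 in the Hmx3; Hmx2 line and -0.365 to -0.188 in the third. The labels give no pairing beyond the number. In the Dmrt2 line each knockout library correlated best with the control of its own number, as did replicates 2, 4 and 5 of the Hmx3; Hmx2 line. This is a hint from the data and not from the design. With the replicate block the third line had 51 calls and the difference between effects 85, and Cyp27b1 was -3.22 (adjusted p = 0.28) in the Dmrt2 line and -3.40 (adjusted p = 0.026) for the difference.
Signs turned for genes near 0. In the Dmrt2 line these were Trpv6 (0.00 in DESeq2, -0.01 with upper-quartile scaling), Slc8a1 and Atp2b1 (0.00 with that scaling), and with the Y-linked covariate Kl (0.00), Atp2b1 (0.00) and Trpm6 (0.36). In the Hmx3; Hmx2 line they were Cyp24a1 (-0.14) and Trpv5 (-0.07) in replicates 1 to 3 and Trpv6 (0.02) in replicates 4 to 6. For the difference it was Trpv6 (0.00 with the covariate). Leaving out a library gave ranges across 0 in the Dmrt2 line for Cyp24a1 (-0.32 to 0.03), Trpv6 (-0.09 to 0.08), Slc8a1 (-0.05 to 0.12), Atp2b1 (-0.02 to 0.05), Kl (-0.27 to 0.06), Spp1 (-0.47 to 0.00) and Trpm6 (-0.38 to 0.06). In the Hmx3; Hmx2 line they did so for Trpv6 (-0.04 to 0.01), S100g (-0.01 to 0.10) and Cyp24a1 (-0.13 to 0.24), and for the difference for Trpv6 (-0.09 to 0.09) and Gc (-0.17 to 0.23). Filters and covariates do not enter the counts of genes wholly on one side.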
